A study of Rattus norvegicus with 38 samples.

Results

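Il6, Il1b and Ccl2 encode 3 secreted inflammatory signals, and their transcripts were followed in RNA sequencing of failing and healthy rat hearts. The genes were chosen by their rat Ensembl identifiers, ENSRNOG00000010278 for Il6, ENSRNOG00000004649 for Il1b and ENSRNOG00000007159 for Ccl2, and they are 3 of the 24057 genes in the deposited table. The choice used no measured value of these libraries, although earlier results of the same data were known when it was made.

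All libraries came from male Sprague-Dawley rats aged 10 weeks. Per the labels, the ascending aorta was narrowed surgically when the rats were 1 week old, and left ventricular hypertrophy followed. The labels of healthy libraries carry that text too and do not say how the healthy rats were treated. No genotype, transgene or drug is named. The sinoatrial node, where each heartbeat begins, was sampled as an inferior part (iSAN) and a superior part (sSAN), beside both atria, right (RA) and left (LA), and the ventricle on the left side (LV). There were 4 failing and 4 healthy libraries of each region, except that only 2 healthy ones came from LV, 38 libraries in all. Each library is named here by its region and the 4-digit code of its title, as in LA0507. The 8 codes recur across regions, and no code is shared by failing and healthy hearts, so anything tied to a code cannot be told apart from health state. The labels do not state that a code stands for 1 animal. If it does not mark separate animals, the p-values reflect the spread between libraries alone.

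Interleukin-6, the product of Il6, signals through a receptor complex that contains gp130 and activates STAT3, and in the heart it is made by several cell types, among them fibroblasts and leukocytes. Interleukin-1 beta, the product of Il1b, is made mainly by monocytes and macrophages as an inactive precursor that caspase-1 cuts once an inflammasome has formed, and it acts through the interleukin-1 receptor. Ccl2 encodes a chemokine, also called MCP-1, that draws CCR2-bearing monocytes from the blood into tissue.

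The start-site regions of Il6 and Il1b are shown because only these members had a promoter window in the reference used. RefSeq promoter windows of assembly GRCr8, from 250 bases before to 50 bases after the annotated start, matched 2 of the 3 genes. Both lie on the minus strand, Il6 at chr4:5894526-5894825 and Il1b at chr3:137036532-137036831. Each is printed 5′ to 3′ on the gene's own strand, with capitals for the letters that matched a motif given below. Patterns of NF-kB sites were also searched, in part with letters chosen after matches were seen, and their results are not used here.
Il6: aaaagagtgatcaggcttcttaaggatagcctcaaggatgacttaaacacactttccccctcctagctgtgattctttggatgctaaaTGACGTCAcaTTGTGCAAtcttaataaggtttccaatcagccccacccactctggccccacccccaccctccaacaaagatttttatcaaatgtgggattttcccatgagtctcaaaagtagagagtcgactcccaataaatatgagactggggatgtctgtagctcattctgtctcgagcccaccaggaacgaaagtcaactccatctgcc
Il1b: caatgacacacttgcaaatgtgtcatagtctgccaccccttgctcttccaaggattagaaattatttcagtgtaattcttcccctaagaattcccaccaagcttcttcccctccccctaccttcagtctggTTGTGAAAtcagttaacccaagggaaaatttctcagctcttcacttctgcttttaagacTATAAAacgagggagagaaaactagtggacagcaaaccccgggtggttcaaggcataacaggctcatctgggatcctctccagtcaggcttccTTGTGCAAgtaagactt

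Motifs were searched as plain letters on both strands. The cAMP response element TGACGTCA began at position -162 from the start of Il6 and was not in the Il1b window, beside 1.83% of the 33469 promoter windows of the same length. The C/EBP pattern TTNNGNAA began at position -152 of Il6 and at positions -119 and 34 of Il1b, beside 41.3% of all windows. TATAAA, the TATA box letters, began at position -60 of Il1b only, beside 14.2% of windows, and the AP-1 pattern TGANTCA was in neither, beside 7.33%. A match describes letters and is no measurement of a factor on these promoters.

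Each of the 3 genes was detected in 38 of 38 libraries, with detection meaning a rounded estimated count of at least 1. A stricter minimum of 10 was met by Ccl2 in 38 libraries, by Il6 in 35 and by Il1b in 30. The Il6 libraries under 10 were all from the left ventricle (LV0409, LV0506 and the healthy LV1001), where the lowest estimated count was 2.85. The Il1b libraries under 10 were LV0409, LV0506, LV0507, both healthy left ventricles, and the healthy left atria LA0920, LA0921 and LA1001. Their lowest value was an estimated count of 2.01 in the healthy LA0921. These are low counts, so a single left ventricular or healthy left atrial value of Il1b carries a large counting error. Library totals ran from 17406473 to 27355777 estimated counts, and 3 counts corresponded to between 0.0996 and 0.416 CPM (counts scaled to library size). LV0507 stood apart from the rest, with 61.3% of its counts in its 10 most abundant genes and a correlation of 0.914 with the mean of its group. The labelled regions were not checked against marker genes, because the files do not pair identifiers with names.

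Levels below are CPM after TMM scaling over all 38 libraries, a scale that compares libraries for a single gene. Changes are log2 differences of failing minus healthy libraries from the quasi-likelihood test of edgeR, with a standard error (SE) and a p-value adjusted by Benjamini-Hochberg over all genes tested, and a change passed when that adjusted p was under 0.05. In tissue pieces, fewer cells of a type and less RNA per cell cannot be told apart.

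Ccl2, the monocyte chemokine, was higher in failing hearts in each of the 4 regions outside the ventricle, by 5.33-fold to 12.8-fold. In the inferior node the failing libraries iSAN0409, iSAN0506, iSAN0507 and iSAN0508 measured 9.80, 43.4, 18.5 and 21.5 CPM, against 1.72, 1.23, 3.22 and 2.57 CPM in the healthy iSAN0920, iSAN0921, iSAN1001 and iSAN1002. Values below keep this order of codes. Every failing library lay above every healthy one, and iSAN0506 held the highest Ccl2 level of the 38 libraries. The edgeR change was 3.36 (SE 0.48, adjusted p = 0.00157).

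In the superior node, failing libraries measured 18.9, 19.96, 21.8 and 16.1 CPM of Ccl2 and healthy ones 1.26, 1.44, 1.67 and 1.58 CPM. This was the tightest of the Ccl2 contrasts: the change was 3.68 with an SE of 0.16 (edgeR, adjusted p = 1.95e-05), or 12.8-fold. In the right atrium the failing libraries measured 6.61, 6.07, 7.18 and 4.65 CPM and the healthy ones 1.01, 1.10, 1.52 and 0.956 CPM, a change of 2.42 (SE 0.22, edgeR adjusted p = 0.000163). The groups were again separate, at a lower failing level than in the node.

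In the left atrium 3 failing libraries measured 6.65, 4.95 and 6.13 CPM of Ccl2 (LA0409, LA0506 and LA0508), and LA0507 measured 27.9 CPM. The healthy left atria lay between 1.24 and 1.58 CPM, below all of them. The change was 3.02 (SE 0.57, edgeR adjusted p = 0.00254), and without LA0507 it was 2.08 (adjusted p = 9.42e-05), so that library raised the size and the spread while the call held without it. In the left ventricle, failing libraries measured 5.69, 10.2, 4.71 and 12.8 CPM and the 2 healthy ones 2.65 and 1.76 CPM. These groups did not overlap in CPM either. In TPM, a scale per transcript length, the failing LV0507 (2.47) lay below the healthy LV1001 (3.92). The change of 1.92 (SE 0.54) had an edgeR unadjusted p of 0.00937 and an adjusted p of 0.406. It passed in DESeq2 (1.91, adjusted p = 0.0258) and in 1 edgeR fit of all libraries (1.93, adjusted p = 0.0199). With 0 genes called in the left ventricle by edgeR, 1510 had an unadjusted p under 0.05, and DESeq2 called 356.

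These counts are read against the background of each contrast. Genes called higher in failing hearts made up 19.5% of those tested for iSAN, 8.92% for sSAN, 24.5% for RA, 24.3% for LA and 0.0% for LV. Genes with every failing library above every healthy one made up 17.8%, 12.6%, 22.1%, 22.5% and 15.7% in the same order. Such a pattern is therefore not rare for a single gene in a single region. In CPM, Ccl2 showed it in 5 of 5 regions, Il1b in 4 and Il6 in the superior node. In TPM it was absent for Ccl2 in the left ventricle. It was also absent in TPM for Il1b in the right atrium, with 1.07 in the failing RA0507 and 1.09 in the healthy RA1002. The share of genes with the pattern in several regions at once was not computed.

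**Figure D1:**
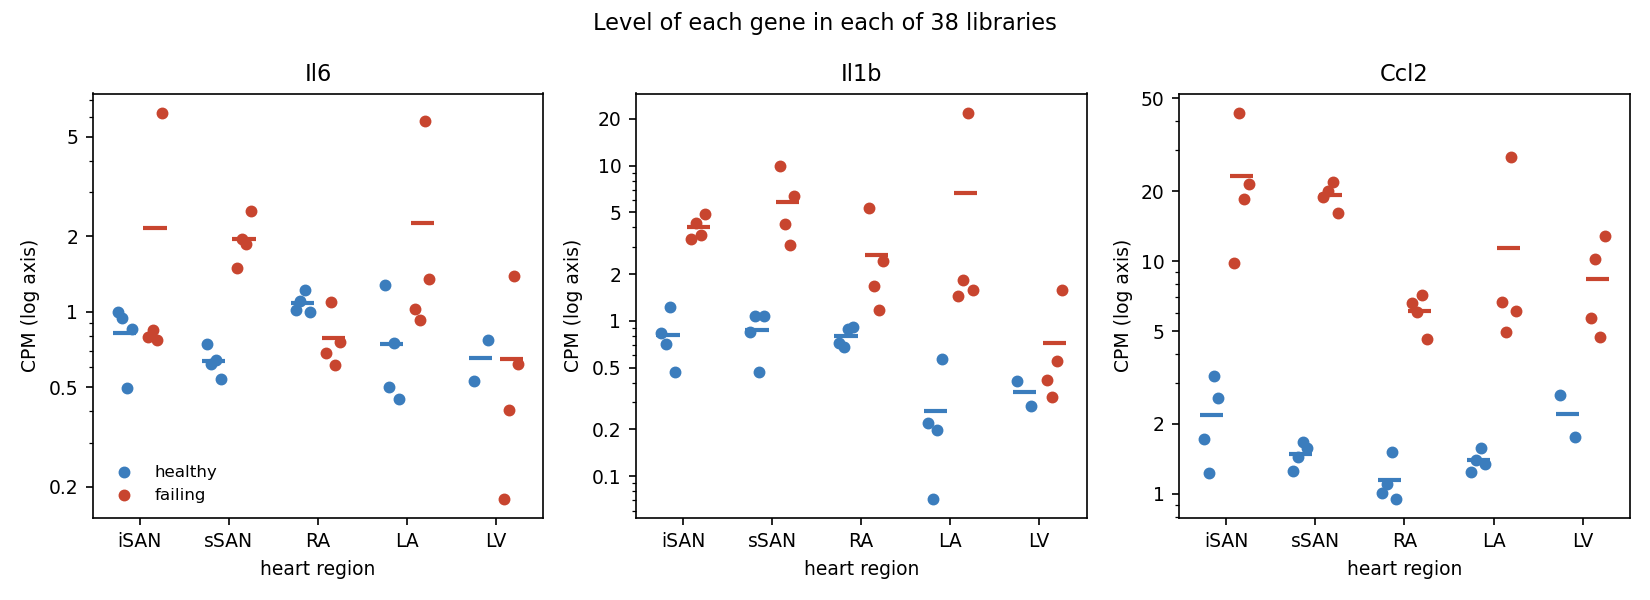
Level of Il6, Il1b and Ccl2 in CPM (log axis) in each of the 38 libraries, by heart region, with healthy libraries in blue, failing ones in red and a bar at each group mean. In CPM, Ccl2 separates the states in every region, Il1b in all but the left ventricle, and Il6 in the superior node. In TPM, Ccl2 in the left ventricle and Il1b in the right atrium overlap. The iSAN0508 (6.22 CPM) and LA0507 (5.75 CPM) libraries stand far above the other Il6 values.

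Il1b, the interleukin-1 beta gene, was also higher in failing hearts in both node parts and both atria. In the inferior node the failing libraries measured 3.36, 4.25, 3.60 and 4.92 CPM, and the healthy ones 0.842, 0.707, 1.24 and 0.471 CPM. The groups were well apart and the failing values close together. The change was 2.25 (SE 0.31, edgeR adjusted p = 0.00128), or 4.77-fold.

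In the superior node the failing libraries measured 9.89, 4.20, 3.06 and 6.35 CPM of Il1b, and the healthy ones 0.851, 1.08, 0.470 and 1.08 CPM. The change was 2.75 (SE 0.42, edgeR adjusted p = 0.0109). In the right atrium the failing values were 5.36, 1.67, 1.17 and 2.43 CPM and the healthy ones 0.716, 0.678, 0.886 and 0.914 CPM, a change of 1.74 (SE 0.46, edgeR adjusted p = 0.0114). The highest failing libraries of these regions, sSAN0409 and RA0409, share a code. The same code gave the lowest failing value in the inferior node (iSAN0409, 3.36 CPM) and in the left atrium (LA0409, 1.44 CPM). Without RA0409 the right atrial change was 1.13 (edgeR adjusted p = 0.0191).

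The left atrium held both ends of the Il1b range. Healthy left atria measured 0.220, 0.0718, 0.198 and 0.571 CPM, and failing ones measured 1.44, 1.83, 21.9 and 1.59 CPM, the highest being LA0507. That single library carried 23.9% of the Il1b CPM summed over all 38 libraries. The change was 4.66 (SE 1.13, edgeR adjusted p = 0.00812), and without LA0507 it was 2.61 (adjusted p = 0.00292): the groups stayed apart, at about the size seen in the node. With limma on log2(TPM + 1) the change of 1.81 missed the threshold (adjusted p = 0.0523). In the left ventricle Il1b did not pass the filter on low counts. Its failing values of 0.419, 0.325, 0.554 and 1.58 CPM overlapped the healthy 0.413 and 0.281 CPM, and an exact two-sided permutation test gave p = 0.4, where 4 against 2 libraries cannot go below 0.0667.

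Il6, the interleukin-6 gene, was the least uniform of the 3. In the superior node its failing libraries measured 1.49, 1.95, 1.86 and 2.52 CPM, all above the healthy values of 0.740, 0.618, 0.641 and 0.539 CPM. The change was 1.61 (SE 0.28, edgeR adjusted p = 0.0145), or 3.04-fold, and it missed the threshold in 1 fit of all 38 libraries (1.61, adjusted p = 0.0556).

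In the inferior node 3 failing libraries measured 0.795, 0.842 and 0.772 CPM of Il6, inside the healthy range of 0.495 to 0.995 CPM, and iSAN0508 measured 6.22 CPM. The change of 1.37 (SE 0.74) did not pass (edgeR adjusted p = 0.173), and without iSAN0508 it was -0.070. The left atrium had the same shape: LA0409, LA0506 and LA0508 measured 1.02, 0.930 and 1.35 CPM beside healthy values of 1.28, 0.502, 0.751 and 0.448 CPM, while LA0507 measured 5.75 CPM. That change was 1.59 (SE 0.65, edgeR adjusted p = 0.0692) and 0.55 without LA0507. It passed in DESeq2 (1.59, adjusted p = 0.0293) and in 1 fit of all libraries (1.60, adjusted p = 0.0293), and also without LA0409 (1.83) or LA0506 (1.86).

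In the right atrium the direction was the other one. Failing libraries measured 0.683, 1.09, 0.612 and 0.758 CPM of Il6 and healthy ones 1.01, 1.10, 1.22 and 0.997 CPM, with RA0506 inside the healthy range. The change of -0.45 (SE 0.27) did not pass (edgeR adjusted p = 0.201), and limma on log2(TPM + 1) gave -0.26 (adjusted p = 0.0452). In the left ventricle, failing values of 0.180, 0.406, 1.39 and 0.620 CPM lay on both sides of the healthy 0.530 and 0.773 CPM. The highest, LV0507, rested on an estimated count of 9.59. In TPM it measured 0.195, below the healthy 0.216 and 0.287, and LV0508 lay above them at 0.319. The change there was -0.10 with an interval from -2.04 to 1.83, which leaves room for a change of either sign.

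**Figure D2:**
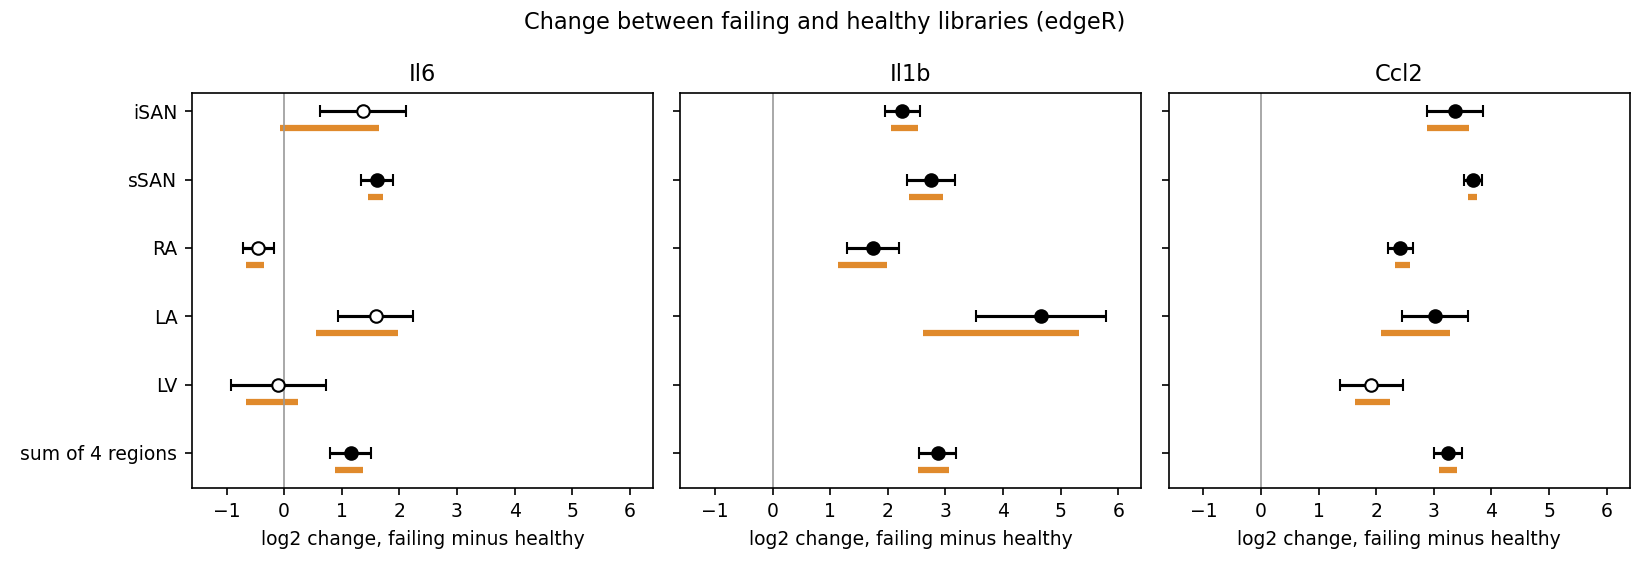
Log2 change of failing minus healthy libraries from edgeR for each gene and region, with bars of 1 SE and filled circles for an adjusted p under 0.05; orange lines span the values with each library left out in turn. Il1b in the left ventricle did not pass the filter and has no point, and the Il6 lines of the inferior node and left atrium reach down to -0.070 and 0.55.

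Since regions that share a code may share an animal, counts were also summed per code over both node parts and both atria, giving 4 failing and 4 healthy sums. On these sums Ccl2 rose by 3.24 (SE 0.24, edgeR adjusted p = 7.66e-05), Il1b by 2.87 (SE 0.32, adjusted p = 0.000209) and Il6 by 1.16 (SE 0.36, adjusted p = 0.022), beside 27.1% of all genes called higher. The Ccl2 and Il1b calls held without any 1 code. The Il6 call was lost without the failing code of LA0507 (0.996) or LA0508 (0.88), and without the healthy code of LA0921 (1.13), LA1001 (1.13) or LA1002 (1.10).

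The deposited transcript table adds what the gene rows do not show. The Il6 gene TPM equalled, within 1e-06 in every library, the sum of 3 transcripts in adjacent rows. The long one, ENSRNOT00000104678.1, had an effective length 3.74 times that of the Ccl2 transcript and was above 0 in 38 of 38 libraries. The shorter ENSRNOT00000013732.7 and ENSRNOT00000103213.1, at 1.51 and 0.837 times, were each above 0 in 5 libraries, all of them failing and 0 of 18 healthy. The share of all transcripts that were above 0 in failing libraries only was not computed. Healthy libraries held at most 35.2 estimated counts of Il6, in LA0920. Whether the absence of the short transcripts there reflects low counts was not tested.

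In TPM, a scale per transcript length, ENSRNOT00000013732.7 measured 2.06 in iSAN0508, 2.35 in LA0507, 0.512 in sSAN0409, 0.230 in sSAN0506 and 0.798 in sSAN0508. ENSRNOT00000103213.1 measured 1.41 TPM in iSAN0508, 0.109 in iSAN0409, and 0.0981, 0.216 and 0.293 in sSAN0409, sSAN0506 and sSAN0507. All 4 failing superior nodes therefore had an estimate above 0 for a short Il6 transcript, as did both libraries with the far highest Il6 level. Several of these values rest on few counts, such as an estimated 0.805 in sSAN0409, and the largest is 45.8 in LA0507. The long transcript did not pass in any region: its change was 0.30 (adjusted p = 0.721) for iSAN, 0.74 (0.350) for sSAN, -0.41 (0.425) for RA, 0.74 (0.271) for LA and 0.34 (0.328) on the sums, by edgeR on the transcript table. Transcripts called higher in failing hearts made up 9.88% for iSAN, 1.53% for sSAN, 13.0% for RA, 13.6% for LA and 17.3% on the sums. The short transcripts did not pass the filter on low counts and have no test.

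The make-up of Il6 by transcript also bears on its gene count, because the deposited gene counts are scaled to 1 length per gene. In iSAN0508 the gene count was 153.3 and its transcripts' counts summed to 87.2, and in LA0507 these were 149.9 and 91.5. With the summed transcript counts in place of the gene count, an alternative chosen after the data were seen, the Il6 change was 1.10 in the superior node (edgeR adjusted p = 0.0402), 0.74 in the inferior node (0.326), 1.14 in the left atrium (0.0860) and 0.70 on the code sums (0.0610). The superior node call stood, at a smaller size, and the call on the sums was lost.

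**Figure D3:**
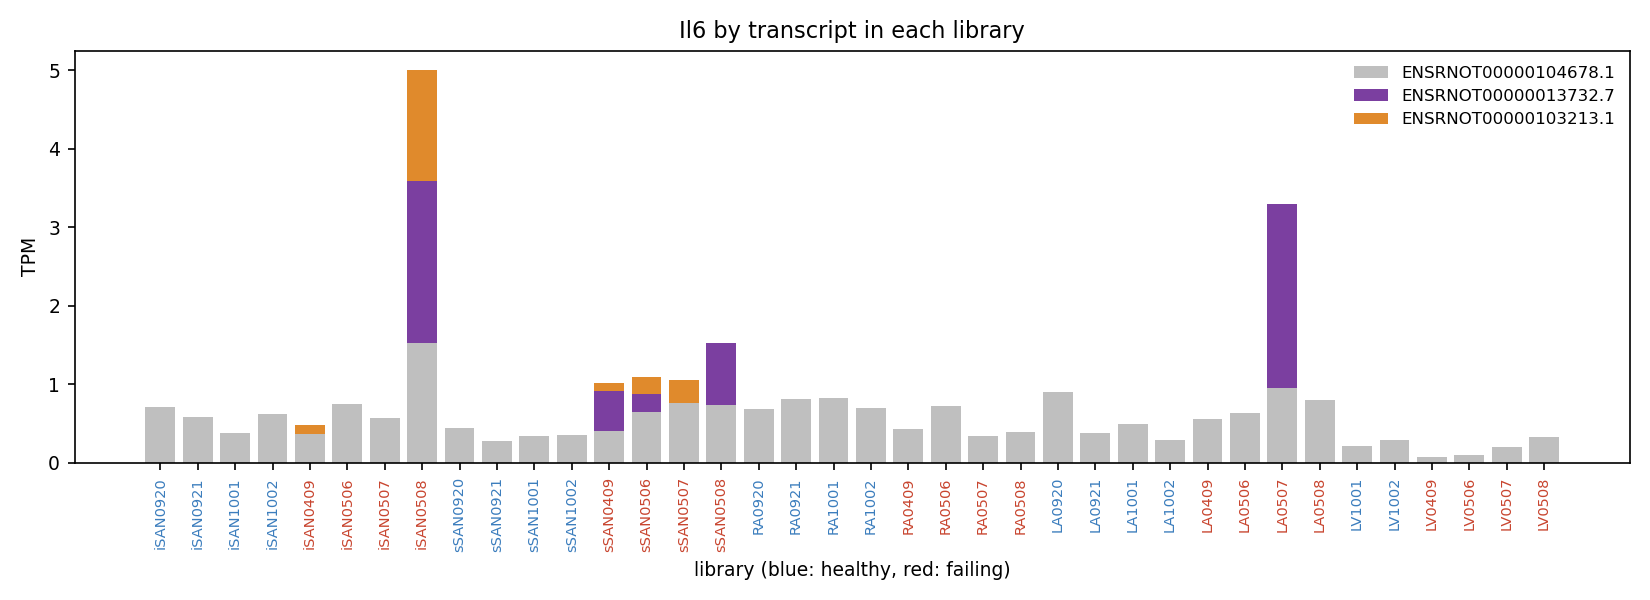
Il6 in TPM in each library, stacked by its 3 transcripts, with healthy library names in blue and failing ones in red. The long transcript (grey) is present everywhere, and the short ones (purple and orange) appear in 7 failing libraries, from 0.0981 to 2.35 TPM.

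Il1b had a second transcript too. ENSRNOT00000006308.5 was above 0 in 38 libraries and changed like the gene, by 2.24 (edgeR adjusted p = 0.00604), 2.69 (0.0381), 1.70 (0.0366) and 4.62 (0.0237) in iSAN, sSAN, RA and LA. ENSRNOT00000116269.1 was above 0 in 11 failing and 0 healthy libraries, at no more than 0.369 TPM, reached in sSAN0409. There it had an estimated count of 11.2, beside 224 for ENSRNOT00000006308.5. Healthy libraries held at most 35.2 estimated counts of Il1b in all, in iSAN1001. Whether its absence there reflects low counts was not tested. Ccl2 had the single transcript ENSRNOT00000009448.4. Measured per length, Ccl2 was the most abundant of the 3 genes: its highest value was 137 TPM in iSAN0506, beside 21.4 TPM for Il1b in LA0507 and 5.00 TPM for Il6 in iSAN0508.

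Ordered by mean CPM over the 10 groups, Ccl2 ran from failing inferior node (23.3 ± 14.3, SD, n = 4) through failing superior node (19.2 ± 2.39, n = 4), left atrium (11.4 ± 11.03, n = 4), left ventricle (8.36 ± 3.81, n = 4) and right atrium (6.13 ± 1.09, n = 4) to the healthy groups, 2.20 to 1.15. Neighbours in this order overlapped except at the step from the failing right atrium to the healthy left ventricle. Il1b ran from failing left atrium (6.69 ± 10.1, SD, n = 4) through failing superior node (5.88 ± 3.00, n = 4), inferior node (4.03 ± 0.70, n = 4) and right atrium (2.66 ± 1.87, n = 4), and the only step without overlap was the one below the failing right atrium. The failing left ventricle, at 0.719 ± 0.58 (SD, n = 4), stood among the healthy groups. For Il6 the first 3 places, failing left atrium (2.26 ± 2.33, SD, n = 4), inferior node (2.16 ± 2.71, n = 4) and superior node (1.956 ± 0.42, n = 4), overlapped each other. The healthy right atrium followed at 1.08 ± 0.10 (SD, n = 4), apart from both of its neighbours in CPM, and the lower places all overlapped. Its lowest value was 0.9971 CPM, barely above the highest of the healthy inferior node (0.9945 CPM). In TPM these groups overlapped, with a lowest right atrial value of 0.688 and a highest inferior node value of 0.711.

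Between regions of the same state, 10 contrasts were fitted. Il1b did not pass the filter in healthy left ventricle against left atrium and was not tested there. In failing hearts Ccl2 was higher in the inferior node than in the right atrium by 1.91 (SE 0.40, edgeR adjusted p = 0.0121), and by 1.43 without iSAN0506. It was also higher in the superior node than in the right atrium, by 1.64 (SE 0.16, adjusted p = 0.000787). Il6 was higher in the failing superior node than in the right atrium by 1.29 (SE 0.29, adjusted p = 0.0258), a call lost in 1 fit of all libraries (1.30, adjusted p = 0.166) and without RA0409, RA0507, RA0508, sSAN0506 or sSAN0508 (1.15 to 1.30). Genes called in either direction made up 19.0% for inferior node against right atrium and 8.28% for superior node against right atrium. These fits left the codes out, and the Ccl2 and Il6 calls above held with the code as a block.

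In the other region contrasts no member passed in the edgeR fit of each pair of groups, which left the codes out. Calls that changed with the code as a block are given beside these values. Failing superior and inferior node differed by -0.26 for Ccl2 (interval -1.10 to 0.58), 0.55 for Il1b (-0.22 to 1.33) and -0.14 for Il6 (-1.72 to 1.45), beside 0.0% of genes called, with 1130 at an unadjusted p under 0.05 and 41 called by DESeq2. In healthy hearts these differences were -0.56, 0.08 and -0.36, beside 0.00698% called. Healthy inferior node and right atrium differed by 0.98 for Ccl2 (SE 0.33, adjusted p = 0.0662, 17.6% of genes called), and with the code as a block by 0.92 (adjusted p = 0.0461). Healthy superior node and right atrium differed by -0.72 for Il6 (SE 0.25, adjusted p = 0.066, 23.2% called). Il1b in the failing superior node was 1.12 above the right atrium (adjusted p = 0.221) and with the code as a block 1.21 (adjusted p = 0.00452).

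Healthy left atrium lay 1.59 below the right atrium in Il1b on the log2 scale, a difference of -1.59 (SE 0.48, edgeR adjusted p = 0.0593, 9.14% called) and of -1.67 with the code as a block (adjusted p = 0.0142). In failing hearts the difference was 1.32 (adjusted p = 0.759, 0.311% called) and -0.73 without LA0507. The left ventricle lay below the left atrium in failing hearts by -1.91 for Il6 (adjusted p = 0.166) and -3.15 for Il1b (adjusted p = 0.0948), beside 10.8% called; without LA0507 these were -0.86 and -1.11. In healthy hearts the left ventricle differed from the left atrium by -0.21 for Il6 and 0.67 for Ccl2, where 43.5% of genes were called.

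Whether the failing change itself differed between regions was tested by 5 interactions for each gene. No interaction of a member passed in edgeR. The superior node minus the right atrium, a contrast added after the data were seen, gave 2.07 for Il6 (SE 0.36, adjusted p = 0.0839) and 1.28 for Ccl2 (SE 0.25, adjusted p = 0.139), and both passed in DESeq2 (2.05, adjusted p = 0.00173, and 1.26, adjusted p = 0.00572). The Il6 difference also passed in edgeR without RA0506 (2.28, adjusted p = 0.0441). For this contrast 0.0% of genes were called, with 1666 at an unadjusted p under 0.05 and 134 called by DESeq2. The other 4 gave 0.932% called for inferior node minus left atrium, 0.171% for right atrium minus left atrium, 0.0203% for inferior node minus right atrium, and 0.0% for inferior node minus superior node, where 598 genes had an unadjusted p under 0.05 and DESeq2 called 0. The largest of their member values was -2.90 for Il1b in the right minus the left atrium (adjusted p = 0.474), and it was -0.86 without LA0507.

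How the 3 genes moved together within groups differed in value between the states and changed when a few libraries were left out. Over 38 libraries, deviations from the group means of log2 CPM correlated at r = 0.387 for Il6 and Il1b, 0.246 for Il6 and Ccl2, and 0.522 for Il1b and Ccl2, as descriptions of libraries that share codes. Spearman correlations of the same deviations were 0.288, 0.0754 and 0.273, in the same order. Each r was also taken without the libraries farthest from the median in the first-named gene, a choice that can itself lower r. Without iSAN0508 and LA0507 the first pair gave 0.123 and the Il6 and Ccl2 pair -0.04. Without LA0507 and LV0508, Il1b and Ccl2 gave 0.180. In the 20 failing libraries alone, r was 0.511 for Il6 and Il1b, 0.359 for Il6 and Ccl2 and 0.614 for Il1b and Ccl2. Without iSAN0508 and LA0507 the Il6 pairs of the failing libraries gave 0.251 with Il1b and 0.0529 with Ccl2. Without LA0507 and LV0508, Il1b and Ccl2 in failing libraries gave 0.180. In the 18 healthy ones Il6 went the other way, with r = -0.308 against Il1b and -0.435 against Ccl2, and -0.27 and -0.26 without LA0920 and iSAN1001, while Il1b and Ccl2 gave 0.0957. The difference between the states was not tested. By Pearson r of levels, the gene most like Il6 was ENSRNOG00000015644 (0.752), and ENSRNOG00000063373 was most like both Il1b (0.874) and Ccl2 (0.920), among 13037 genes over 38 libraries. By Spearman correlation, and for deviations from the group means, other genes came first for each member.

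**Figure D4:**
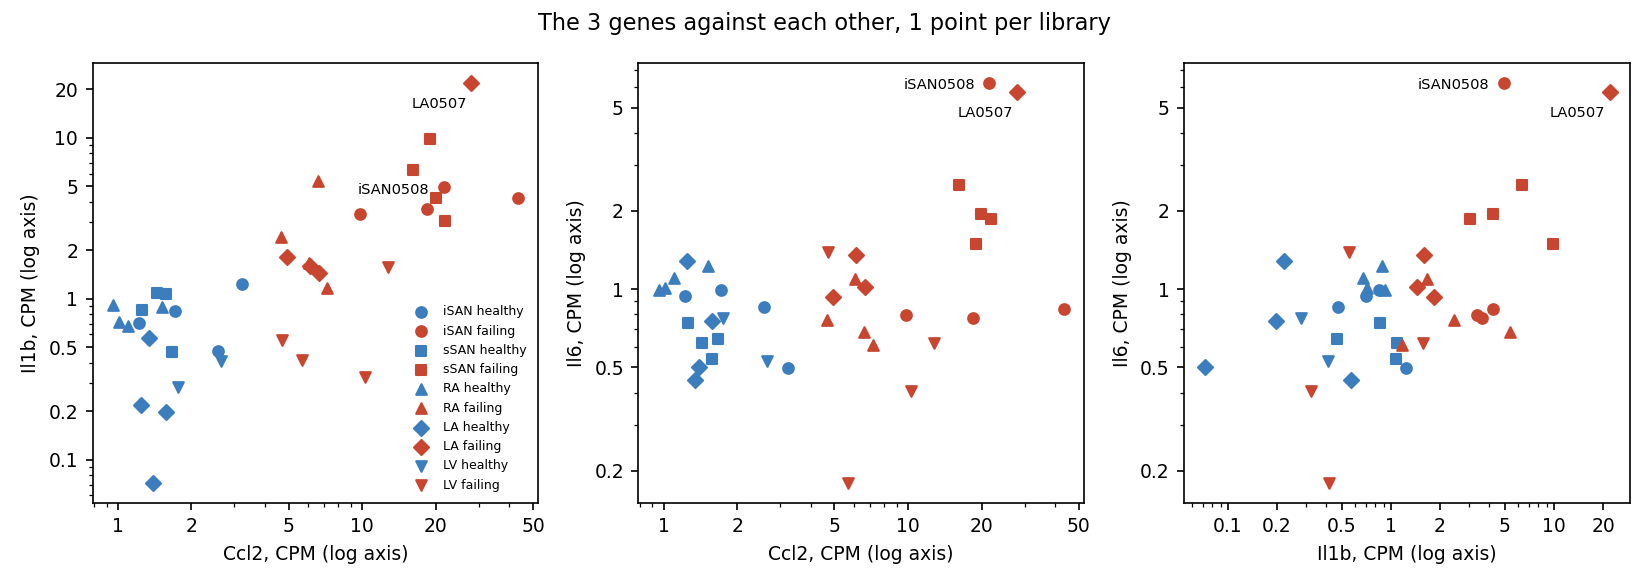
The 3 genes against each other in CPM (log axes), 1 point per library, with a shape for each region and blue for healthy, red for failing. LA0507 is at or near the top of all 3 genes, whereas iSAN0508 is extreme in Il6 (6.22 CPM) with Il1b at 4.92 CPM and Ccl2 at 21.5 CPM, inside the failing node range.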

How the data were processed

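Per the labels' protocols, 38 libraries were prepared with Illumina's TruSeq RNA chemistry. The submitters' processing notes name Trimmomatic 0.39 and kallisto 0.48.0. Build and annotation: not given in the sources used here. Deposited by the authors were estimated counts and TPM per gene and per transcript. The deposited gene counts are scaled for transcript length.

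Estimated counts were rounded to whole numbers, filtered with filterByExpr (minimum 10, total 15), scaled with TMM and tested in R 4.3.3 by edgeR 4.0.16 (robust quasi-likelihood), adjusted by Benjamini-Hochberg over all genes, with a threshold of 0.05. Intervals are 95% intervals from the standard error and the t quantile at the test's own degrees of freedom. Alternatives were DESeq2 1.42.0, its size factors in edgeR, no filter, limma 3.58.1 on log2(TPM + 1) and log2(TPM + 0.1), a single edgeR fit of every library, a replicate block of the codes, and leaving out libraries in turn. The permutation test used scipy 1.17.1. The steps were tested on simulated counts.

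The main fits left the codes out, so their p-values ignore any pairing. The code entered only as a block among the alternatives. Codes were judged to pair libraries where every same-coded pair's deviations from the group means correlated above 0.1. That held for the superior against the inferior node in failing hearts (0.318 to 0.543), the inferior node against the right atrium (0.116 to 0.237 healthy, 0.256 to 0.317 failing), the superior node against the right atrium (0.164 to 0.172 and 0.315 to 0.384) and the healthy atria (0.248 to 0.273).

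The members and lists were chosen with earlier results of these data known. The 3 members are named everywhere, and of the genes most like each member by Pearson r of log2 CPM (prior count 2) only the first identifier is given. The pathway and cell type lists were not applied, because the reference table matched 0 identifiers.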

Additional observations from a re-analysis of the deposited data

Results flagged for a closer look

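Each of the 3 genes was examined in the groups of 4 libraries, 27 cases in all, and in 4 cases a library lay far from the other 3 by the 95% critical value of Dixon's test. For normally distributed values, chance passes that value in about 1 in 20 independent cases. The test was applied to CPM without a log, whose distribution was not checked, so that rate may not hold here. These cases are not independent, since they come from 2 libraries, and LA0507 gives 3 of them. Il6 was 6.22 CPM in iSAN0508, with a gap to the next library of 0.987 of the group's range. Il6 was 5.75 CPM (gap 0.913), Il1b 21.9 CPM (gap 0.981) and Ccl2 27.9 CPM (gap 0.926) in LA0507. In LA0507 and iSAN0508, 26.4% and 16.4% of counts lay in the 10 most abundant genes. The correlation with the rest of the group was 0.974 for LA0507, beside 0.981 to 0.987 in the other failing left atria, and 0.979 for iSAN0508, beside 0.976 to 0.985 in the other failing inferior nodes. Of all genes, 8.59% had their highest level of the 38 libraries in iSAN0508, beside 0.913%, 4.94% and 0.926% in the other failing inferior nodes, and 3.17% in LA0507. What set these libraries apart in the 3 genes was not tested.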

How the results depend on the processing

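In the regions where they passed and on the code sums, Il1b and Ccl2 changes between states kept their call with each library left out. With the other settings, 1 Il1b and 2 Ccl2 values changed their call. DESeq2 gave no adjusted p for Il1b in the left atrium or Il6 in the inferior node, so neither was compared. With limma on log2(TPM + 1), the left atrial Il1b change (1.81) and the Il6 change on the sums (0.45) no longer passed, and the Il6 change in the right atrium (-0.26) did. With 1 fit of all libraries, Il6 lost its call in the superior node (1.61) and for failing superior node against right atrium (1.30), and passed in the left atrium (1.60), as it did with DESeq2 (1.59). Ccl2 in the left ventricle passed with DESeq2 (1.91) and in 1 fit of all libraries (1.93). With transcript counts summed, chosen after seeing the data, Il6 on the sums (0.70) no longer passed. The cause of these differences was not tested.

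Between regions, DESeq2 called Ccl2 in healthy inferior node against right atrium (0.97) and Il1b in healthy left against right atrium (-1.6), and limma called the latter at both pseudocounts (-0.59 and -1.54). Limma also called Il6 in healthy superior node against right atrium (-0.38 and -0.93) and in failing left ventricle against left atrium (-0.85 and -2.11), the last of which passed in 1 fit of all libraries too (-1.94), as did Il1b (-3.15). DESeq2 called the superior node minus right atrium interaction of Il6 (2.05) and Ccl2 (1.26). Signs of uncalled values turned with limma, in the order of pseudocounts 1 and 0.1: Il1b in healthy superior against inferior node (-0.13 and -0.25), Il1b in healthy superior node against right atrium (-0.12 and -0.27) and Ccl2 in healthy left ventricle against left atrium (-0.085 and -0.12). At 0.1 alone they turned for Il6 in failing superior against inferior node (0.14) and Il1b in healthy inferior node against right atrium (-0.021), and at 1 alone for the Il6 interaction of inferior node minus left atrium (0.012).

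With the code as a replicate block, Ccl2 in healthy inferior node against right atrium (0.92), Il1b in failing superior node against right atrium (1.21) and Il1b in healthy left against right atrium (-1.67) passed, and 2 uncalled Il6 values turned sign, in failing superior against inferior node (0.41) and in healthy left ventricle against left atrium (0.11). The block changed no other call of a member. No paired analysis was possible between states because no code occurs in both.

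Leaving out each library in turn changed a call or a sign in the following results, given as the lowest and highest log2 value. Il6 failing against healthy ran over inferior node -0.070 to 1.65, left atrium 0.55 to 1.98, left ventricle -0.66 to 0.23. Il6 on the code sums ran over sums per code 0.88 to 1.37. Il6 between regions ran over left ventricle against left atrium, healthy -0.50 to 0.19, superior node against inferior node, failing -0.41 to 1.29, superior node against right atrium, failing 1.15 to 1.501. Il1b between regions ran over inferior node against right atrium, failing 0.33 to 1.18, inferior node against right atrium, healthy -0.20 to 0.27, left atrium against right atrium, failing -0.73 to 1.92, left atrium against right atrium, healthy -2.26 to -1.27, superior node against inferior node, healthy -0.096 to 0.37. Ccl2 between regions ran over inferior node against right atrium, healthy 0.72 to 1.17, left atrium against right atrium, failing -0.057 to 1.14, left ventricle against left atrium, failing -0.72 to 0.51, superior node against inferior node, failing -0.52 to 0.21. Il6 for interactions ran over inferior node minus left atrium -1.67 to 0.79, inferior node minus superior node -1.66 to 0.043, superior node minus right atrium 1.93 to 2.28. Ccl2 for interactions ran over inferior node minus left atrium -0.17 to 1.26, right atrium minus left atrium -0.86 to 0.35. Counts under 10 limit Il6 in the left ventricle and Il1b in the left ventricle and the healthy left atrium.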
